A study of Mus musculus with 4 samples.

Results

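The collagen and laminin chains were collected by symbol. All protein-coding genes named Col with a type number and a chain number (Col1a1), or Lama, Lamb or Lamc with a chain number, were taken and matched to the files by Entrez identifier, which gave 55 of 27179 genes. They comprised 11 fibrillar collagens, 17 basement membrane chains (6 chains of type IV collagen and 11 laminins) and 27 other collagens. RNA of whole liver was sequenced in bulk from wild-type C57BL/6 mice, named C57BL/6J in the treatment notes, which were labelled male and matched for age and sex. The fasted mice went without food overnight and could drink freely, and the non-fasted (unfasted) controls had food and water at all times, with 2 libraries per group. The groups follow the sample titles, since the treatment field of the labels reads fasted for all 4 libraries. No age is given in the sources used here, nor whether a library came from 1 mouse or a pool, and p-values therefore speak only to the differences seen among the 4 libraries, part of which may be technical.

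Collagens are extracellular proteins of 3 chains wound into a triple helix, which needs a glycine in the first place of each Gly-X-Y triplet of a chain. Fibrillar collagens pack into the banded fibres of connective tissue, whereas type IV collagen forms the network of basement membranes, the sheets that underlie epithelia and surround vessels and muscle. Laminins are the other network former of basement membranes, each a trimer of an alpha, a beta and a gamma chain, and the trimers are named by their chain numbers. In the normal liver the sinusoids have little organised basement membrane, stellate cells and portal fibroblasts are the main makers of fibrillar collagen, and hepatocytes themselves make collagen XVIII, whose C-terminal end is released as endostatin.

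The repeat that defines a collagen can be read from the coding sequence, and it differs between the groups compared here. In the longest coding sequence of each gene in GENCODE M21 (build GRCm38), the longest unbroken run of triplets with a glycine codon in first place (Gly-X-Y) was 216 to 344 triplets in the 11 fibrillar collagens. Type IV chains had 39 to 66 triplets in their longest run and 22 to 27 separate runs of 5 or more, since their helix is broken many times. The 11 laminins, which are no collagens, had no run above 3 triplets. The start of the longest run is shown for the chains that lead the results below, 5′ to 3′, with the glycine codons in capitals. The run is 344 triplets long in Col3a1, 217 in Col27a1, 40 in Col4a1 and 30 in Col18a1, whose helix lies in 14 runs of 5 or more triplets.
Col3a1, codons 164 to 193: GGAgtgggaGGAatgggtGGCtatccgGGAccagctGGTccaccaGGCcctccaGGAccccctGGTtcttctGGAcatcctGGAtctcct
Col27a1, codons 673 to 702: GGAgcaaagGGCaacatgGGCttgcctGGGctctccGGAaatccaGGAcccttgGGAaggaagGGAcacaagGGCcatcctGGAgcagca
Col4a1, codons 43 to 72: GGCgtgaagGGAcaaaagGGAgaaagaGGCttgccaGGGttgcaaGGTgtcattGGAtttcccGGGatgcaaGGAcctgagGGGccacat
Col18a1, codons 953 to 982: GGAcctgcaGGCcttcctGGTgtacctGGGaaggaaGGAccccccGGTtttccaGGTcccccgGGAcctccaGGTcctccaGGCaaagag

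Gene counts summed to 13528015 to 13541405 in the fasted libraries and 36943535 to 36975921 in the non-fasted libraries. The hepatocyte identity was present in all 4 libraries. Of 14 hepatocyte markers, however, 14 were higher in the fasted group, against 37.2% of all genes tested. Their sum in CPM (counts per 1000000 gene counts of the library) was 132110 and 132330 fasted and 54990 and 54680 non-fasted. Trophoblast markers, genes of the fetal part of the placenta, took 4.06 and 4.88 CPM in the fasted libraries and 56290 and 56766 in the non-fasted libraries, where they made 5.63 and 5.68% of all counts. In the fasted libraries 10 of the 16 trophoblast markers had no count. Of the 15 that could be tested 15 were lower there, against 45.0% of all genes tested. All of these but Plac8 had at most 3 counts in a fasted library, below the minimum of the filter on low counts. They entered the test through the non-fasted libraries alone, so they had to be lower. The label male also conflicts with Xist, the RNA of the inactive X chromosome, which had 2 and 1 counts in the fasted libraries but 25772 and 26316 in the non-fasted ones. Both non-fasted libraries stand apart in this way, so no comparison could be made without them. In bulk RNA, fewer cells of a type and less RNA per cell cannot be told apart.

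Together the 55 chains took 1315 and 1264 CPM in the fasted libraries and 7344 and 7272 in the non-fasted libraries. Basement membrane chains summed to 99.5 and 101 CPM in the fasted libraries and 5580 and 5528 in the non-fasted ones, and fibrillar collagens to 172 and 159 against 1057 and 1055. The other collagens summed to 1043 and 1004 CPM in the fasted libraries and 708 and 690 in the non-fasted ones, but without Col18a1 to 61.9 and 60.2 against 281 and 279. Basement membrane chains thus made 7.57 and 8.02% of the chain counts in the fasted libraries and 76.0% in both non-fasted libraries.

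A single gene held most of the chain counts of the fasted libraries. Col18a1, collagen XVIII of vascular and epithelial basement membrane zones, had 13287 and 12770 counts in the fasted libraries and 15790 and 15201 in the non-fasted libraries, which were sequenced more deeply. Per kilobase of exon it made 77.1% of all chains in each fasted library and 6.56 and 6.39% in the non-fasted libraries. Without it the chains summed to 334 and 320 CPM in the fasted libraries and 6917 and 6861 in the non-fasted ones.

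**Figure D1:**
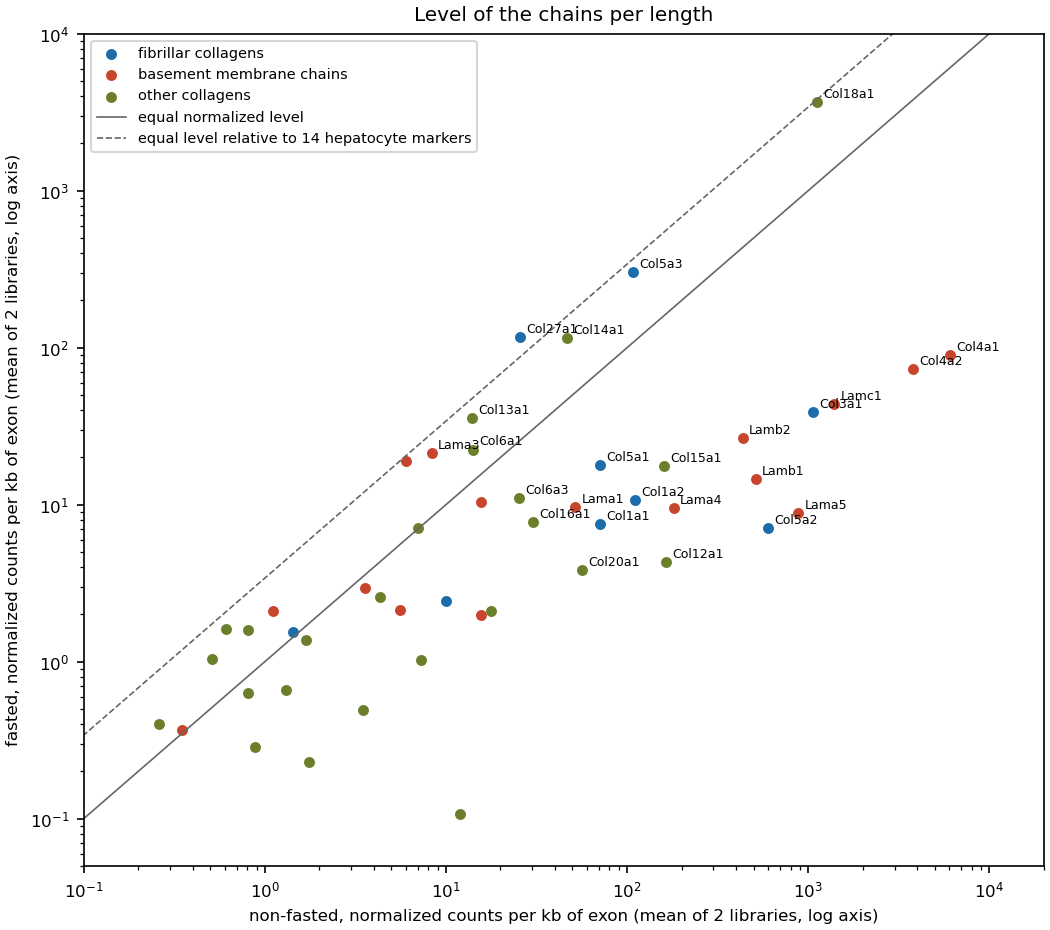
Level of the chains as normalized counts per kilobase of exon, non-fasted on the x axis and fasted on the y axis (means of 2 libraries, log axes), coloured by group. The solid line marks equal normalized levels and the dashed line equal levels relative to the 14 hepatocyte markers. Col18a1 has 3652 in the fasted libraries and 1121 in the non-fasted ones, while Col4a1 has 90.3 and 6093. Chains without a count in a group and 1 further chain are not drawn.

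Of the 55 chains, 54 had a count and 44 passed the filter on low counts. Of these 44, 4 (Col22a1, Col6a4, Col9a3 and Col17a1) were at or above the filter's minimum of 0.396 CPM in the non-fasted libraries alone, so that they had to be lower in the fasted group to enter at all. A further 2, Col24a1 and Col8a1, reached it in 1 fasted library. With counts scaled by the median of ratios and edgeR's quasi-likelihood test, 28 chains were lower and 10 higher in the fasted libraries, and 6 did not pass the threshold of 0.05 on the adjusted p. Among all 15470 genes tested, 45.0% were called lower and 37.2% higher by the same rule. The median log2 fold change, fasted over non-fasted, was -2.23 over the tested chains and -0.13 over all genes tested. The fall was deepest in the basement membrane chains, with 12 of 16 tested chains lower, 3 higher and a median of -3.50. Of the 9 tested fibrillar collagens 6 were lower and 2 higher, with a median of -2.03. Of the 19 tested other collagens 10 were lower and 5 higher, with a median of -1.19. The 4 chains that entered through the non-fasted libraries were all in this last group. Without them 24 of 40 chains were lower, with a median of -1.97, and 6 of 15 other collagens, with a median of -0.28.

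The count of higher chains depended on what the libraries were scaled to. Scaled to total counts, which shifts that median by -0.50, 7 chains were higher and 31 lower, against 22.9 and 62.7% of all genes. Relative to the 14 hepatocyte markers, a shift of the median of all genes tested of -1.77 on the log2 scale, 1 chain was higher and 40 were lower, against 4.66 and 90.2% of all genes. Col27a1 was the chain that stayed higher under all 3 scalings. Relative to these markers 8 of the 44 tested chains lay within 0.5 log2 units of 0, from -0.45 to 0.43, namely Col18a1, Col27a1, Col5a3, Col14a1, Col13a1, Col6a6, Lama3 and Lamb3, and the next chain was Col25a1 at -0.77. Under this scaling the 14 markers themselves ran from -0.63 (Cps1) to 0.50 (Apoa2), with 7 called higher and 7 lower. The 8 chains lay within that range, whichever way they were called.

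**Figure D2:**
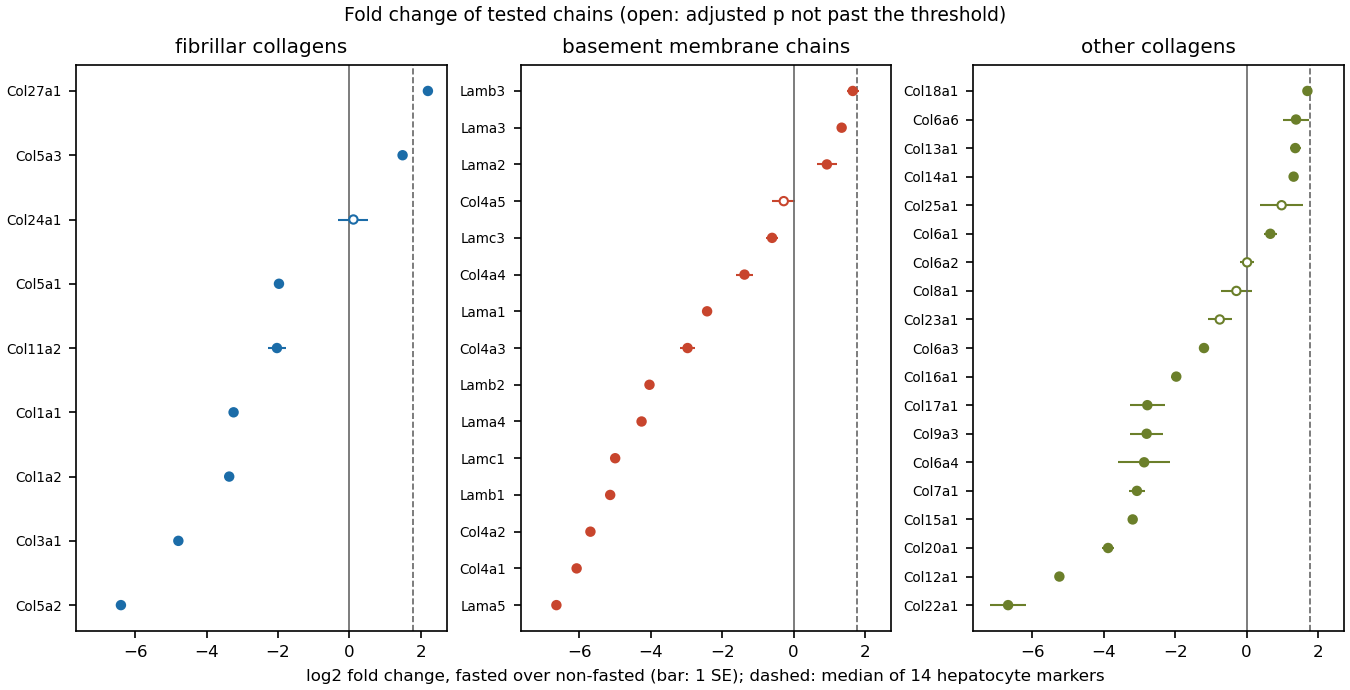
Log2 fold change of 43 of the 44 tested chains, fasted over non-fasted, with bars of 1 standard error, in 3 panels by group. Open points did not pass the threshold, the solid line is no difference in normalized counts and the dashed line is the median of the 14 hepatocyte markers. The chains run from -6.67 (Col22a1) to 2.20 (Col27a1).

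Type IV collagen was lower in the fasted libraries in both of its major chains. Col4a1, which joins with Col4a2 in the most widespread type IV trimer, had 346 and 339 counts in the fasted libraries and 90204 and 88811 in the non-fasted libraries. Its normalized count averaged 674 ± 7.93 (SD, n = 2) in the fasted group against 45477 ± 477 in the other, a log2 fold change of -6.08 (SE 0.041, edgeR adjusted p = 1.64e-13). Col4a2 had 243 and 250 counts against 49503 and 49073, with a log2 fold change of -5.69 (SE 0.031, edgeR adjusted p = 4.06e-14). Both genes were called lower, as were 45.0% of all genes tested. In the mouse genome Col4a1 and Col4a2 lie head to head on opposite strands, and the start sites in RefSeq (GRCm38.p6) are placed so that the first 22 transcribed bases of each gene lie opposite those of the other. The balance of the pair was close but not equal in the groups, since Col4a1 made 58.7 and 57.6% of their joint counts in the fasted libraries (Wilson 95% intervals 54.7 to 62.7 and 53.5 to 61.5%) and 64.6 and 64.4% in the non-fasted libraries (64.3 to 64.8 and 64.2 to 64.7%).

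The minor type IV chains changed less. Col4a3 and Col4a4, which build the trimer of the glomerular basement membrane together with Col4a5, had 11 and 9 against 301 and 309 counts and 12 and 11 against 115 and 117 counts. Their log2 fold changes were -2.97 (SE 0.21, edgeR adjusted p = 1.21e-06) and -1.38 (SE 0.25, edgeR adjusted p = 7.25e-04). Col4a5, on the X chromosome, did not pass the test, with 8 and 12 counts in the fasted libraries and 43 and 51 in the non-fasted ones and a log2 fold change of -0.28 (SE 0.32, edgeR adjusted p = 0.451). Scaled to total counts (-0.78) or to the hepatocyte markers (-2.04) it was called lower. Col4a6, with 3 and 0 counts against 6 and 5, was too low to test. Every type IV chain tested was thus lower or not past the threshold, and the normalized libraries overlapped in Col4a5.

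Among the laminins, the chains of the trimers built on Lama5, the main laminins of adult epithelia and vessels, were lower as well. Lama5 had 56 and 46 counts in the fasted libraries and 19782 and 19725 in the non-fasted libraries, and its normalized count went from 10036 ± 15.4 in the non-fasted to 100 ± 13.6 in the fasted group (SD, n = 2), a log2 fold change of -6.64 (SE 0.061, edgeR adjusted p = 1.47e-12). Lamb1 had 72 and 75 counts against 9993 and 10052, and Lamc1, the gamma chain of most laminins, 182 and 186 against 22925 and 22604. Lamb1 fell by 5.14 on the log2 scale (SE 0.061, edgeR adjusted p = 7.82e-12), and the log2 fold change of Lamc1 was -4.997 (SE 0.051, edgeR adjusted p = 2.99e-12). Lamb2 had 71 and 93 counts against 5202 and 5228, and fell by 4.04 (SE 0.072, edgeR adjusted p = 7.96e-11). All 4 genes were called lower, as were 45.0% of all genes tested.

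Lama4, Lama1 and Lamc3 were also lower, by widely different amounts. Lama4, an alpha chain of endothelial laminin, had 53 and 63 counts against 4329 and 4276 (log2 fold change -4.26, SE 0.070). Lama1, the alpha chain of the embryonic laminin, had 43 and 52 counts against 1025 and 951 (-2.42, SE 0.12). Both passed the threshold. Lamc3 had 34 and 30 counts against 186 and 191, with a log2 fold change of -0.60 (SE 0.17, edgeR adjusted p = 0.00952), which was no longer past the threshold without fasted library 2 (-0.49) or with DESeq2.

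3 laminin chains ran against the rest. Lama3 and Lamb3, chains found in epithelial laminin, had 115 and 117 against 177 and 177 counts and 68 and 59 against 73 and 83 counts, so that the normalized count was higher in both fasted libraries. Their log2 fold changes were 1.34 (SE 0.11, edgeR adjusted p = 4.72e-06) and 1.65 (SE 0.18, edgeR adjusted p = 2.26e-05). Lama2, the alpha chain of muscle laminin, had 18 and 17 against 31 and 40 counts, with a log2 fold change of 0.93 (SE 0.28, edgeR adjusted p = 0.0126). Scaled to the hepatocyte markers, Lama3 and Lama2 were instead called lower and Lamb3 did not pass. Relative to the hepatocyte markers the sign turned in all 3, to -0.42, -0.11 and -0.83, and Lama2 was not past the threshold without the first fasted library (0.92 on the log2 scale), without the second (0.9999), with DESeq2 (0.93) or with total-count scaling (0.43).

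The make-up of the laminin alpha and beta chains does not depend on how libraries are scaled to each other. Per kilobase of exon, Lama3 made 41.9 and 41.0% of the alpha chains in the fasted libraries and 0.742 and 0.748% in the non-fasted libraries. Lama5 made 19.2 and 15.2% in the fasted libraries and 78.2 and 78.6% in the non-fasted ones. Of the beta chains Lamb3 made 35.2 and 28.1% in the fasted libraries and 0.589 and 0.666% in the non-fasted ones. The fasted libraries therefore held a mixed set of alpha and beta chains and the non-fasted libraries mainly Lama5, Lamb1 and Lamb2. With 2 libraries a group an exact permutation test of such shares cannot give a p below 0.333, so none was run.

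**Figure D3:**
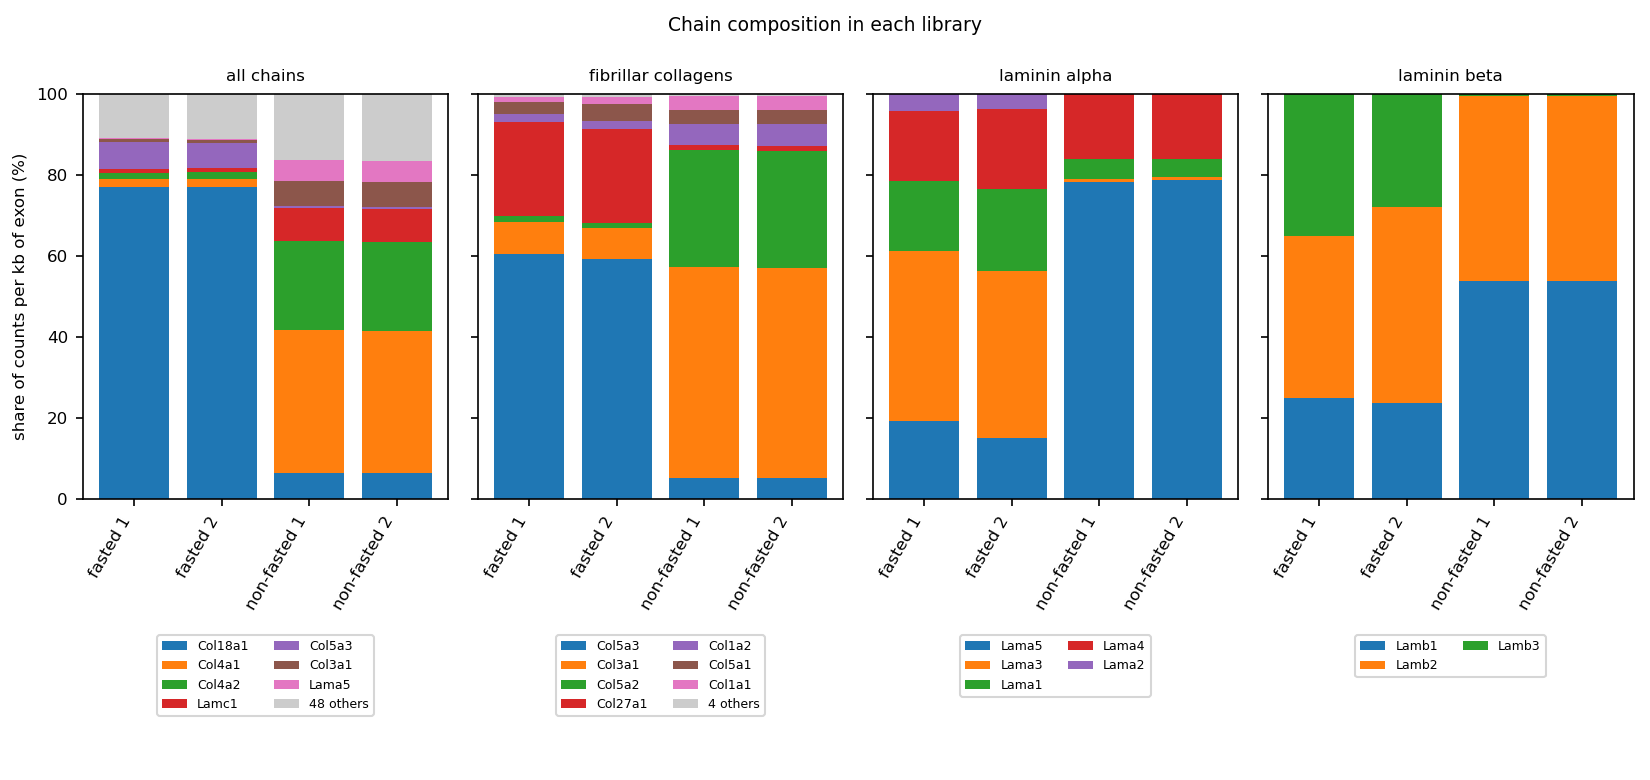
Share of each chain in the counts per kilobase of exon, in percent, for each of the 4 libraries, over all chains, the fibrillar collagens and the laminin alpha and beta chains. Bars are stacked to 100%. Col18a1 fills 77.1% of the first panel in both fasted libraries, Col5a3 leads the fibrillar collagens there with 60.5 and 59.3%, and Lama5 fills 78.2 and 78.6% of the alpha chains in the non-fasted libraries.

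Fibrillar collagens split in a similar way. Col3a1, the chain of type III collagen, had 205 and 181 counts in the fasted libraries and 20751 and 20593 in the non-fasted libraries. Its normalized count averaged 380 ± 32.4 in the fasted group against 10503 ± 51.4 in the other (SD, n = 2), a log2 fold change of -4.79 (SE 0.048, edgeR adjusted p = 2.47e-12). Col1a1 and Col1a2, the chains of type I collagen, had 22 and 28 against 949 and 888 counts and 71 and 64 against 2672 and 2721 counts. Their log2 fold changes were -3.24 (SE 0.13, edgeR adjusted p = 2.50e-08) and -3.37 (SE 0.069, edgeR adjusted p = 1.88e-10). The balance of the type I pair was alike within counting error, with Col1a1 at 23.7 and 30.4% of the joint counts in the fasted libraries (Wilson 95% intervals 16.2 to 33.2 and 22.0 to 40.5%) and 26.2 and 24.6% in the non-fasted libraries.

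Type V collagen, which nucleates fibrils of type I, changed its chain make-up. Col5a2 had 41 and 28 counts in the fasted libraries and 11299 and 11253 in the non-fasted libraries, a log2 fold change of -6.40 (SE 0.079, edgeR adjusted p = 9.50e-12). Col5a1, which pairs with it in the common type V trimer, had 65 and 90 against 1137 and 1220 counts (-1.97, SE 0.12, edgeR adjusted p = 3.26e-07). Col5a2 thus made 38.7 and 23.7% of the counts of these 2 genes in the fasted libraries (Wilson 95% intervals 30.0 to 48.2 and 17.0 to 32.2%) and 90.9 and 90.2% in the non-fasted libraries (90.3 to 91.4 and 89.7 to 90.7%). The third chain, Col5a3, had 1107 and 997 counts against 1461 and 1444, and its normalized count averaged 2070 ± 148 in the fasted group against 738 ± 5.73 in the other (SD, n = 2), a log2 fold change of 1.49 (SE 0.048, edgeR adjusted p = 4.78e-09). Relative to the hepatocyte markers, however, it was called lower (-0.28). Per kilobase Col5a3 made 93.2 and 91.5% of the type V chains in the fasted libraries and 14.1 and 13.9% in the non-fasted ones.

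The largest rise of any chain was in Col27a1, a fibrillar collagen with a shortened helix known from cartilage. It had 807 and 744 counts in the fasted libraries and 642 and 668 in the non-fasted libraries, and was the only tested chain whose raw counts were higher in both fasted libraries in spite of their lower depth. The log2 fold change was 2.20 (SE 0.053, edgeR adjusted p = 5.64e-10) and stayed at 0.43 relative to the hepatocyte markers. This value lay within the range of the markers themselves, -0.63 to 0.50. Per kilobase it made 23.1 and 23.2% of the fibrillar collagens in the fasted libraries and 1.21 and 1.26% in the non-fasted ones. Col11a2 had 9 and 8 counts against 132 and 138 and was lower (log2 fold change -2.03, SE 0.26, edgeR adjusted p = 8.97e-05). Col24a1, with 7 and 5 against 17 and 26 counts, overlapped between the groups after scaling and did not pass (0.11, SE 0.42, edgeR adjusted p = 0.826). Relative to the hepatocyte markers it was called lower (-1.64). Col2a1 and Col11a1, the cartilage chains, had no count in the fasted libraries and 8 and 5 (Col2a1) or 4 and 4 (Col11a1) in the non-fasted ones. For Col2a1 the non-fasted level was 1.12-fold the floor of 3 counts over the fasted group. That ratio leaves out the counting error of the non-fasted counts, so it does not show a higher level there. For Col11a1 the floor gives no fold.

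Among the other collagens, several structural kinds held both rises and falls. Col18a1 had the highest level of all chains in the fasted libraries per length, and its normalized count averaged 25642 ± 651 in the fasted group against 7873 ± 208 in the other (SD, n = 2), a log2 fold change of 1.70 (SE 0.024, edgeR adjusted p = 1.72e-11). Relative to the hepatocyte markers its value was -0.07 on the log2 scale, and it was called lower. Col15a1, the other collagen of its multiplexin kind, went the opposite way, with 48 and 65 counts against 2016 and 1975 (-3.19, SE 0.090, edgeR adjusted p = 1.79e-09). Per kilobase the ratio of Col18a1 to Col15a1 was 250 and 178 in the fasted libraries and 7.08 and 6.96 in the non-fasted ones.

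The collagens that sit on the surface of fibrils, known as FACIT collagens, also divided. Col12a1 had 40 and 27 counts against 4910 and 4910 and fell by 5.24 on the log2 scale (SE 0.086, edgeR adjusted p = 4.58e-11). Col22a1, known from tissue junctions, had 1 and 0 counts against 227 and 209, and by the counts alone its level was 113-fold higher in the non-fasted libraries (exact 95% counting interval 20.1 to 4456-fold). Col20a1 had 9 and 11 against 574 and 569 counts (-3.88, SE 0.17), and Col16a1 28 and 25 against 404 and 400 (-1.97, SE 0.15), and both passed the threshold. Col14a1, also a FACIT collagen, was higher, with 425 and 400 counts against 652 and 630 and a log2 fold change of 1.318 (SE 0.058, edgeR adjusted p = 3.94e-08). The transmembrane collagen Col13a1 had 91 and 76 counts against 120 and 131 (1.36, SE 0.15, edgeR adjusted p = 3.30e-05). Relative to the hepatocyte markers both turned, to -0.45 and -0.40, and both were called lower.

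Type VI collagen, the beaded filament of the pericellular matrix, had chains on both sides. Col6a1 had 47 and 53 against 111 and 133 counts and a log2 fold change of 0.67 (SE 0.19, edgeR adjusted p = 0.00877), Col6a2 had 28 and 32 against 123 and 107 and did not pass (0.02, SE 0.21, edgeR adjusted p = 0.947), and Col6a3 had 70 and 64 against 564 and 622 and was lower (-1.19, SE 0.12, edgeR adjusted p = 1.46e-05). Col6a1 and Col6a3 therefore moved apart, and Col6a1 made 40.2 and 45.3% of their joint counts in the fasted libraries (Wilson 95% intervals 31.7 to 49.2 and 36.6 to 54.3%) and 16.4 and 17.6% in the non-fasted libraries (13.8 to 19.4 and 15.1 to 20.5%). Col6a6, with 8 and 7 against 13 and 9 counts, was higher (1.39, SE 0.38, edgeR adjusted p = 0.00779), but not without either fasted library (1.33 and 1.51), with DESeq2 or with total-count scaling (0.89). Col6a1 was likewise not past the threshold without either fasted library (0.79 and 0.61) or with total-count scaling (0.16), and relative to the hepatocyte markers it was called lower (-1.10). Col6a6 then stood at -0.36 and did not pass. Col6a2 was called lower both with total-count scaling (-0.49) and relative to those markers (-1.75). Col6a4 had 1 and 1 against 37 and 22 counts, 7.62-fold more in the non-fasted group by the counts (exact 95% counting interval 2.02 to 64.4), and Col6a5 was too low to test.

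Several other collagens had few counts. Col7a1, the anchoring fibril collagen, had 7 and 15 against 362 and 356 counts (-3.07, SE 0.23, edgeR adjusted p = 1.93e-06). Col17a1, of the hemidesmosome, had 1 and 2 against 40 and 42 counts, which is 7.06-fold more in the non-fasted group (exact 95% counting interval 2.33 to 34.9). Col9a3 had 1 and 3 counts against 55 and 55. 3 other chains did not pass, namely Col23a1 (8 and 7 against 54 and 44 counts, log2 fold change -0.75, SE 0.33), Col8a1 (4 and 7 against 31 and 21, -0.28, SE 0.44) and Col25a1 (11 and 10 against 32 and 9, 0.98, SE 0.59), with edgeR adjusted p = 0.0644, 0.566 and 0.154. Col25a1 was past it without non-fasted library 1 (2.13) and Col23a1 without non-fasted library 2 (-0.90). With total-count scaling Col23a1 was called lower (-1.25), and relative to the hepatocyte markers Col23a1 (-2.50) and Col8a1 (-2.03) were. Of the chains too low to test, Col8a2, Col9a2, Col10a1, Col19a1, Col26a1 and Col28a1 had at most 15 counts in any library, Col9a2 and Col26a1 had none in the fasted libraries, and Col9a1 had none in any library.

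The start sites of the chains were compared by the sequence in front of them. RefSeq windows (GRCm38.p6) matched 40 of the 55 chains, with 44 start sites, and the 100 bases upstream of each were searched on both strands for the GC box GGGCGG, the CCAAT box CCAAT and TATAA. A GC box was found in 20 of the 44 windows (45.5%), against 24.7% of the windows of all 32851 start sites, and a CCAAT box in 4 (9.09%), against 18.9%. Of the windows of higher chains 4 of 10 held a GC box, and of those of lower chains 6 of 17. The windows below are given 5′ to 3′ on the strand of the gene, with matches in capitals, for 3 chains that were lower and for the 2 with the largest rises. Col18a1 has 2 start sites 52825 bases apart, of which only the distal one has GC boxes in this window, and the gene counts do not separate their transcripts.
Lama5, chr2:180225860-180225959, minus strand: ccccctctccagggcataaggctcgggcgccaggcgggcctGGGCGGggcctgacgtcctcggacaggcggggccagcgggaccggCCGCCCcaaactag
Lamb1, chr12:31265193-31265292, plus strand: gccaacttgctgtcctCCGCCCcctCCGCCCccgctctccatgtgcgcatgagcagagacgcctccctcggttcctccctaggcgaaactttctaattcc
Col3a1, chr1:45311438-45311537, plus strand: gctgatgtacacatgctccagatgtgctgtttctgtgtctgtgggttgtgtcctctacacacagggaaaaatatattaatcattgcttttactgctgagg
Col27a1, chr4:63215312-63215411, plus strand: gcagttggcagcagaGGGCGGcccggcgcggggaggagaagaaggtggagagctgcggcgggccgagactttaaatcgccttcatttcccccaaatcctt
Col18a1, distal start, chr10:77166531-77166630, minus strand: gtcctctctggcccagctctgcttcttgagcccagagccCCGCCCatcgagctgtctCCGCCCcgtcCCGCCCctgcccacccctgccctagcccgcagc
Col18a1, proximal start, chr10:77113706-77113805, minus strand: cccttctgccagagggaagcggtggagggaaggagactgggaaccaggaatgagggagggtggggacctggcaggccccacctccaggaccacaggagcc
These matches describe letters only, and whether a factor binds there was not measured.

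Collagen chains need dedicated enzymes and chaperones in the secretory pathway. Of 34 genes of collagen folding and processing, all tested, 25 were lower in the fasted libraries, 5 were higher and 4 did not pass, with a median log2 fold change of -1.78. Lox, P4ha3, Tll1, Adamts3 and Colgalt2 were under the filter's minimum of 0.396 CPM in both fasted libraries. They entered through the non-fasted libraries alone, so they had to be lower. Over all genes tested 45.0% were lower and 37.2% higher, with a median of -0.13, and the same background holds for the partners and receptors that follow. The steepest falls were in Plod2, a lysyl hydroxylase of telopeptides (7 and 4 against 4194 and 4253 counts, log2 fold change -7.62), Lox, the lysyl oxidase that crosslinks collagen (4 and 4 against 2954 and 2881, -7.54), and Serpinh1, the collagen chaperone HSP47 (71 and 71 against 34638 and 34997, -6.98). P4hb, the beta subunit of prolyl 4-hydroxylase and the disulfide isomerase of every secretory cell, had the highest level and fell by only 0.14 (13265 and 13158 against 56395 and 56411 counts). The largest rises were in Mia2, a cargo receptor for large secreted loads that hepatocytes express (969 and 946 against 1253 and 1160, 1.62), Pcolce2 (27 and 23 against 31 and 32, 1.61) and Mia3 (3075 and 2972 against 6643 and 6547, 0.83). P4ha3 had no count in the fasted libraries, and the falls named here and the 3 rises passed edgeR's test.

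Type IV collagen and laminin have further partners in the basement membrane. Of 18 tested partners 13 were lower, against 45.0% of all genes, 4 higher and 1 did not pass, with a median log2 fold change of -2.45. Fbln1, fibulin 1, had 9 and 7 counts against 12908 and 12935 (-8.69), Sparc, a collagen-binding glycoprotein, 226 and 233 against 51730 and 52002 (-5.87), and Fbln2 11 and 19 against 3210 and 3144 (-5.77). Nid1, the nidogen that links laminin to type IV collagen, had a log2 fold change of -5.10 and Hspg2, perlecan, of -4.68. Frem2 had no count in the fasted libraries and 224 and 233 in the others, so it had to be lower to be tested. The rises were in Frem1 (1.44), Hmcn1 (1.41), Fras1 (1.21) and Smoc1 (0.50), of which Smoc1 was the most abundant, with 1216 and 1102 counts against 3130 and 3205.

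Of the receptors, 12 of 17 tested were lower, against 45.0% of all genes, 4 higher and 1 did not pass, with a median log2 fold change of -1.20. The medians of the first 2 lists were the same with P4ha3 and Frem2 set to the floor of 3 counts over the fasted group. Itga2, the collagen-binding integrin alpha 2, had 0 and 2 counts against 1157 and 1142 (-8.14), the collagen receptor Ddr1 12 and 11 against 2419 and 2443 (-5.76) and the endocytic collagen receptor Mrc2 15 and 18 against 1482 and 1442 (-4.51). Itga2 and Itga11 were under the filter's minimum in both fasted libraries, so they had to be lower to be tested. Itgb1, the common beta subunit, had the highest mean over the 4 libraries and fell by 1.17, while Sdc4 had more counts than Itgb1 in both fasted libraries. Lair1 (1.56), Sdc1 (1.30) and Sdc4 (1.25) had the largest rises. Relative to the hepatocyte markers none of the 13 genes that were higher in the 3 lists was still called higher, and 33 of 34, 16 of 18 and 16 of 17 genes were lower, against 90.2% of all genes tested.

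**Figure D4:**
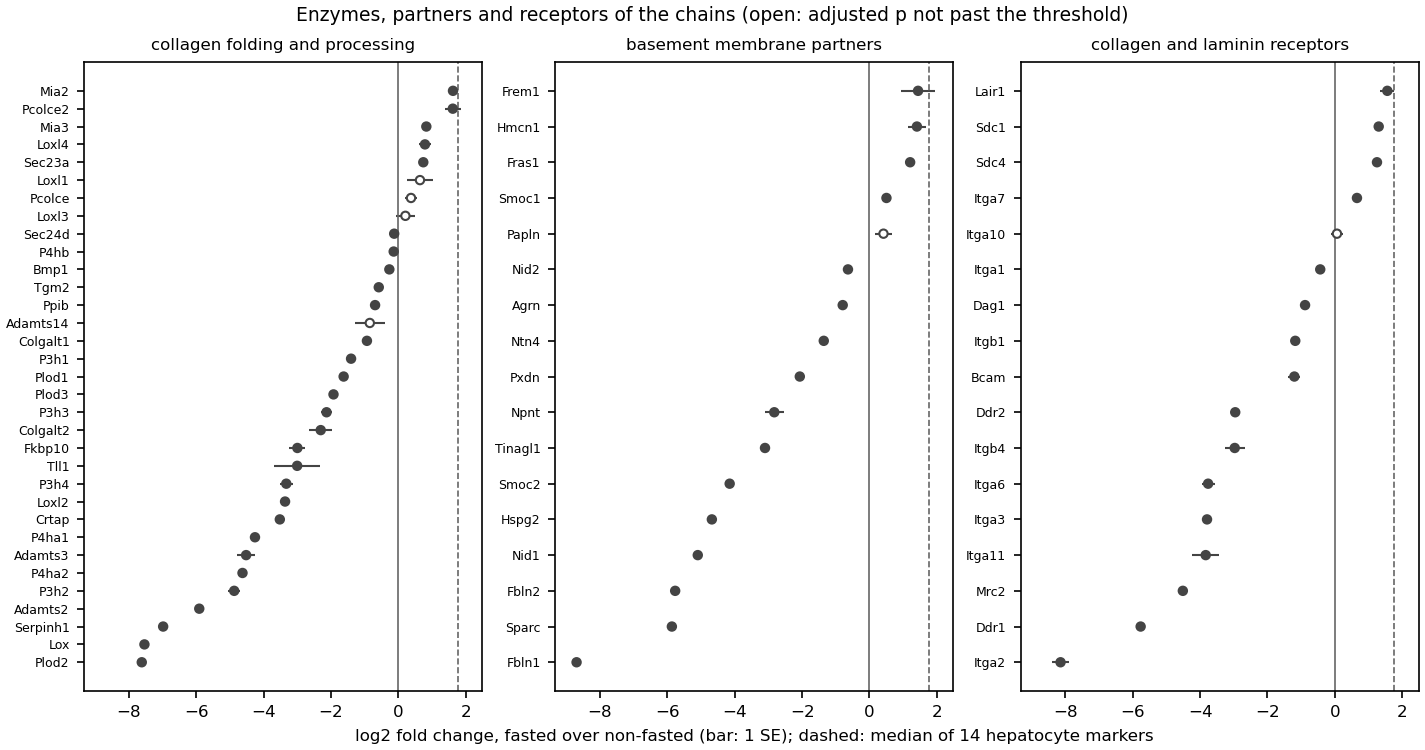
Log2 fold change (fasted over non-fasted) for tested genes of collagen folding and processing, basement membrane partners and receptors, with bars of 1 standard error. Open points did not pass the threshold, the dashed line is the median of the 14 hepatocyte markers, and P4ha3 and Frem2, without a count in the fasted libraries, are not drawn. Plod2 at -7.62, Fbln1 at -8.69 and Itga2 at -8.14 are the lowest points.

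Markers of matrix-making and vessel cells moved in both directions, as did all genes tested, of which 37.2% were higher and 45.0% lower. Of 16 stellate cell and fibroblast markers 8 were higher and 8 lower, and their sum was 319 and 301 CPM in the fasted libraries and 3930 and 3933 in the non-fasted ones. The 8 that were higher (Lrat, Reln, Hgf, Colec11, Cygb, Ngfr, Dpt and Tcf21) had log2 fold changes from 1.42 to 2.42, or -0.35 to 0.65 relative to the hepatocyte markers. The 8 that were lower (Des, Lum, Pdgfra, Vim, Dcn, Pdgfrb, Lhx2 and Ecm1) had log2 fold changes from -8.20 to -0.32, or -9.97 to -2.09 relative to those markers. Markers known from quiescent stellate cells were on both sides, with Lrat and Reln higher and Lhx2 and Ecm1 lower. Of 14 endothelial markers 6 were higher (Stab2, Clec4g, Oit3, Gpr182, Tek and Eng) and 7 lower (Flt1, Cdh5, Emcn, Pecam1, Lyve1, Kdr and Tie1), and Stab1 did not pass. Markers of sinusoidal endothelium were thus on both sides, with sums of the whole list of 393 and 391 against 1865 and 1871 CPM. None of these 30 markers was at 0 in the fasted libraries. Smooth muscle and pericyte markers summed to 98.1 and 98.2 against 204 and 208 CPM, with 5 of 8 tested lower and 2 higher. Among the lower ones Cspg4, with 0 and 4 counts in the fasted libraries, entered through the non-fasted libraries alone.

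Markers of the tissues around a conceptus were measured as well, beside 45.0% lower and 37.2% higher among all genes tested. Of 11 decidual stroma markers, genes of the maternal cells that surround the implanted embryo, 8 of 10 tested were lower and 5 had no count in the fasted libraries (Prl3c1, Prl8a2, Hoxa10, Hoxa11 and Pgr). These 5 entered the test through the non-fasted libraries alone, so they had to be lower. The sum of the decidual list was 1049 and 1022 CPM in the fasted libraries and 4087 and 4134 in the non-fasted ones, most of it in the fasted libraries from Igfbp4, which hepatic cells also express. Of 13 markers of parietal endoderm and yolk sac, 7 of 12 tested were lower and 4 higher, Amn and Stra6 had no count in the fasted libraries, and without Ttr, which is also on the hepatocyte list, their sum was 56.5 and 54.8 against 144 and 146 CPM. Stra6 was tested and likewise had to be lower. The part of these cell types, of the trophoblast markers and of the hepatocyte markers in the changes of the chains was not tested. It cannot be told apart from fasting, because the marker sums differ between the same groups of libraries.

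**Figure D5:**
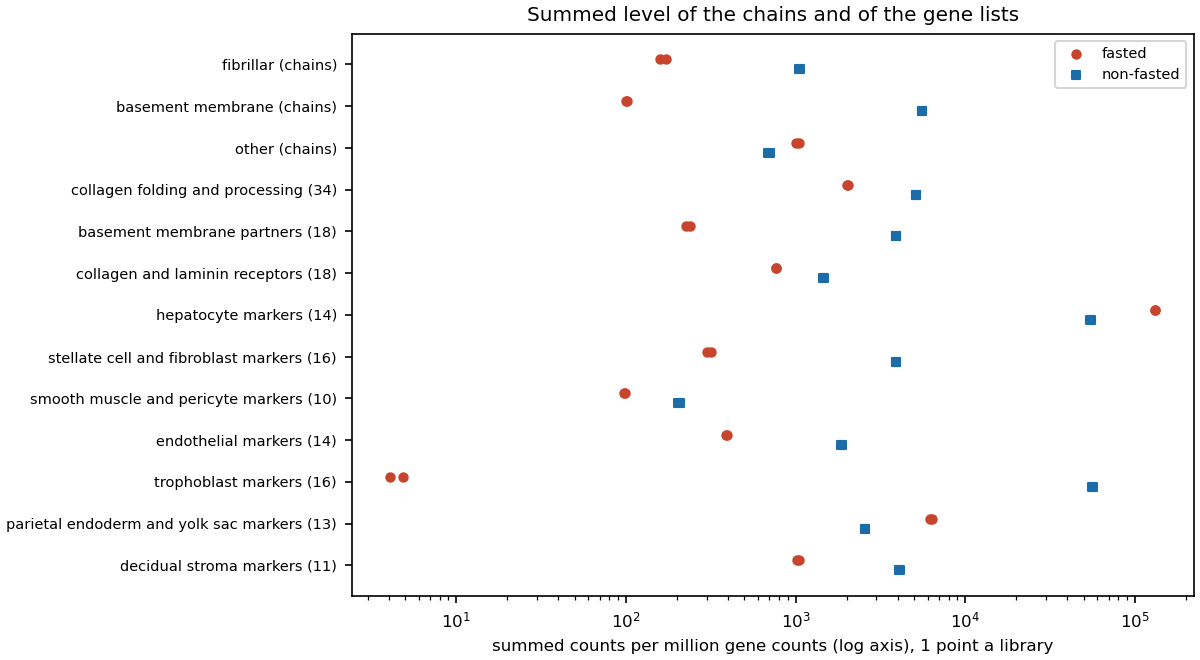
Summed CPM (log axis) of the 3 groups of chains and of each gene list, with 1 point per library and the number of genes in brackets. Basement membrane chains are at 99.5 and 101 in the fasted libraries and 5580 and 5528 in the non-fasted ones, and trophoblast markers at 4.06 and 4.88 against 56290 and 56766.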

How the data were processed

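The authors deposited raw read counts per gene, without normalization, for 27179 Entrez identifiers in each of 4 libraries. Named in the submitters' processing notes are the build GRCm39 (mm39), STAR, Trimmomatic, FastQC, MultiQC, featureCounts and DESeq2 1.32.0. Strand setting and treatment of multi-mapping reads: not given in the sources used here. Both can move counts between overlapping or similar genes. Symbols came from a RefSeq table of GRCm38.p6, which left 1904 identifiers unnamed. Since the builds differ, no coordinates of counted genes are given, and those of upstream windows are RefSeq's on GRCm38.p6. Exon and coding lengths and coding sequences came from GENCODE M21.

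Tests used edgeR 4.0.16 in R 4.3.3. DESeq2 1.42.0 and limma 3.58.1 served for alternatives, and matplotlib 3.10.9 for plots. filterByExpr with default settings kept 15470 genes. Library sizes were scaled by the median of ratios, and edgeR's quasi-likelihood F test (two-sided) compared the groups, with Benjamini-Hochberg adjustment over the genes tested, a threshold of 0.05 and no fold minimum. Standard errors were derived from F and the fold change. Normalized counts are counts divided by the library's size factor. edgeR's deviance is inexact for abundant genes at its small dispersion (common coefficient of variation 0.00988), but with the exact deviance 0 calls of chains differed. On simulated counts of 15470 genes for this comparison the test found 59 of 67 genes with a 1.5-fold change, 67 of 67 with 2-fold and 66 of 66 with 4-fold, and made 4 false calls. The simulation used the small dispersion estimated here, changed only these well-counted genes and left all others equal. It therefore does not cover chains with few counts, the choice of scaling or a larger spread between mice. Within each pair the excess over sampling noise was detectable but small over all genes. The chi-square per gene was 1.12 for the fasted pair, with 13348 genes, and 1.13 for the non-fasted pair, with 17211. Over the chains alone it was 1.17 for the fasted pair, with 41 chains, and higher for the non-fasted pair, at 1.51 with 51 chains. Both pairs were kept as 2 libraries, but whether the 2 came from different mice was not tested. Standard errors and p-values rest on this small spread and may not cover the spread between mice. Gene totals were 13528015 to 36975921 per library.

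The chains and the gene lists were chosen with earlier results of these data known, so nothing here is independent support for a pattern seen before. Lists are described by counts and medians, without a test. Any chain may be named, but 1 chain is counted in the totals and not reported here. Values per library are given, in each group of chains, for the most abundant, the most changed, those against their group and those not past the threshold, and in the other lists for the up to 3 most changed each way and the most abundant. Shares carry 95% Wilson intervals, ratios of very low counts carry exact ones, and a group without a count is set to a floor of 3 counts. The intervals cover counting error only, and a ratio to the floor leaves out the counting error of the other group. Tried as alternatives were TMM, total-count and hepatocyte-marker scaling, other filters, limma-voom, DESeq2, coefficients of variation held at 0.2 or 0.4, the exact deviance, a minimum fold of 2, a replicate block and leaving out each library.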

Additional observations from a re-analysis of the deposited data

How the results depend on the processing

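Of the 28 chains lower in the fasted libraries 24 were called lower under all 16 alternatives, and of the 10 higher chains 1 was called higher under all of them, or 4 leaving hepatocyte-marker scaling aside. Scaling to 14 hepatocyte markers moved the median log2 fold change of all genes by -1.77 and left 721 genes higher and 13948 lower, with 1 chain higher, 1 fibrillar collagen, 0 basement membrane chains, 0 other collagens, 0 folding genes, 0 partners and 0 receptors, and 17 other collagens lower. The direction then reversed for Lama2 (-0.83), Lama3 (-0.42), Lamb3 (-0.11), Col24a1 (-1.64), Col5a3 (-0.28), Col6a2 (-1.75), Col6a1 (-1.10), Col14a1 (-0.45), Col13a1 (-0.40), Col6a6 (-0.36) and Col18a1 (-0.065). Col25a1 also changed sign, from 0.98 to -0.77, but was not called under either scaling. Scaling to total counts moved that median by -0.50, left 3550 genes, 3 other collagens and 2 partners higher, and reversed Col6a2 (-0.49). Col24a1 also changed sign there, from 0.11 to -0.39, without a call under either scaling. With the coefficient of variation held at 0.2, 3714 genes were higher. At 0.4, 1648 genes were higher and 3691 lower, and the higher calls came to 4 chains, 1 basement membrane chain, 1 other collagen, 2 folding genes, 0 partners and 1 receptor. A minimum fold of 2 left 2273 genes higher and 3990 lower, with 3 other collagens, 2 folding genes and 0 partners higher. These 2 scalings shift all fold changes downward alike, so they could remove higher calls and add lower ones but not the reverse. The stricter tests ask for larger fold changes, and other causes were not tested. Counting without the 4 chains that reached the filter minimum in the non-fasted libraries alone, chosen after seeing the data, left 24 chains and 6 other collagens lower. Leaving out each library gave 5192 to 5311 genes higher and 6066 to 6288 lower, 7 to 10 chains higher and 26 to 29 lower, and 3 to 5 other collagens higher, the 3 without either fasted library. Col6a6 could not be tested with the filter of 10 counts or without either non-fasted library, nor could Col24a1 without either, or Col6a4 and Col8a1 without the first.

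The replicate block gave 5743 genes higher and 6929 lower, and 10 chains higher and 28 lower. It changed no call of a chain. The deviations of same-numbered libraries had a correlation of -0.00693 over 12115 genes. The replicate numbers are not stated to mark a shared animal, day or batch. Since the libraries of a pair differed by little more than sampling noise, the correlation cannot settle whether they do. The count by DESeq2 was 5230 genes higher and 6214 lower.

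Shares of chains moved with the length they were divided by. With coding length the fasted and non-fasted means were 2.06% and 34.4% for Col4a1, 73.7% and 5.61% for Col18a1, 13.6% and 65.9% for Lama5, 34.3% and 0.659% for Lama3, 10.2% and 53.9% for Col3a1, and 32.4% and 1.36% for Col27a1. With raw counts they were 1.96% and 33.1% for Col4a1, 74.6% and 5.74% for Col18a1, 40.0% and 0.701% for Lama3, 8.61% and 53.0% for Col3a1, and 34.6% and 1.68% for Col27a1. In each of these the group with the larger share was as before. With 2 libraries a group, and fasted libraries with fewer counts, chains with few counts were the least precise.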
